A study of Mus musculus with 8 samples.

Results

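Engulfment receptors and bridging molecules let a cell recognise and take up dying cells, debris and synapses. The 10 genes described here were chosen by name, and all 10 were found among the 21878 genes of the deposited table. They are the receptor genes Megf10, Mertk, Axl, Tyro3, Lrp1 and Itgb5, the genes of the soluble bridging proteins Gas6, Pros1 and Mfge8, and the adaptor gene Gulp1. RNA was sequenced from wild-type astrocytes, glial cells that support neurons, isolated from newborn C57BL/6 mice. There were 4 untreated libraries and 4 from astrocytes that received a cocktail of IL-1α, TNFα and C1q, used to obtain reactive astrocytes that carry the complement fragment C3d. Its dose and duration are not stated in the labels. Libraries held 19195898 to 20640490 fragments. The labels do not say whether the 4 libraries of a group came from separate cultures or animals, so p-values measure only how far the libraries spread, and this spread may be technical.

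A dying cell or a synapse marked for removal exposes the lipid phosphatidylserine on its outer surface. Gas6 and protein S (from Pros1) bind this lipid and bridge it to the receptor kinases Tyro3, Axl and Mertk, together called TAM receptors. Mfge8 bridges the same lipid to integrins that pair the αv chain with a β chain such as the β5 chain of Itgb5. Megf10 and Lrp1 are scavenger-type receptors, and the adaptor Gulp1 binds their cytoplasmic tails. In astrocytes, Megf10 and Mertk are known for the uptake of synapses, and Megf10 can bind C1q, one of the proteins of the cocktail.

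Most of these genes were lower after the cocktail, and Axl was the main exception. Mertk, Gulp1 and Itgb5 fell most, to mean levels 3.90-, 2.41- and 2.01-fold below those of untreated cells. Megf10 and Mfge8 fell less, 1.51- and 1.33-fold, and the lipid-binding ligand genes Gas6 and Pros1 fell 1.21- and 1.10-fold. Axl rose 1.44-fold, Lrp1 rose 1.06-fold in a call that most single left-out libraries ended, and Tyro3 did not pass the test. Levels are in FPKM, fragments scaled to gene length and to library depth, so that genes of different length can be compared. A gene was called when its adjusted p in limma, a linear model fitted across all 11845 tested genes, was under 0.05.

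Of the 10 genes 2 were called higher, where 26.6% of all tested genes were called higher, and 7 were called lower, where 41.1% of all tested genes were. Calls in either direction covered 67.7% of all tested genes, so that a call by itself does not set these genes apart. The libraries of both groups did not overlap in 8 of the 10 genes, against 62.7% of all tested genes. The median log2 change of the 10 genes was -0.34, and that of all tested genes was -0.05. Of all calls 39.3% were rises as deposited and 52.0% after the libraries were rescaled by median ratios. Among the 10 genes this rescaling ended the call of Pros1 only and moved no called gene to the other direction.

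**Figure D1:**
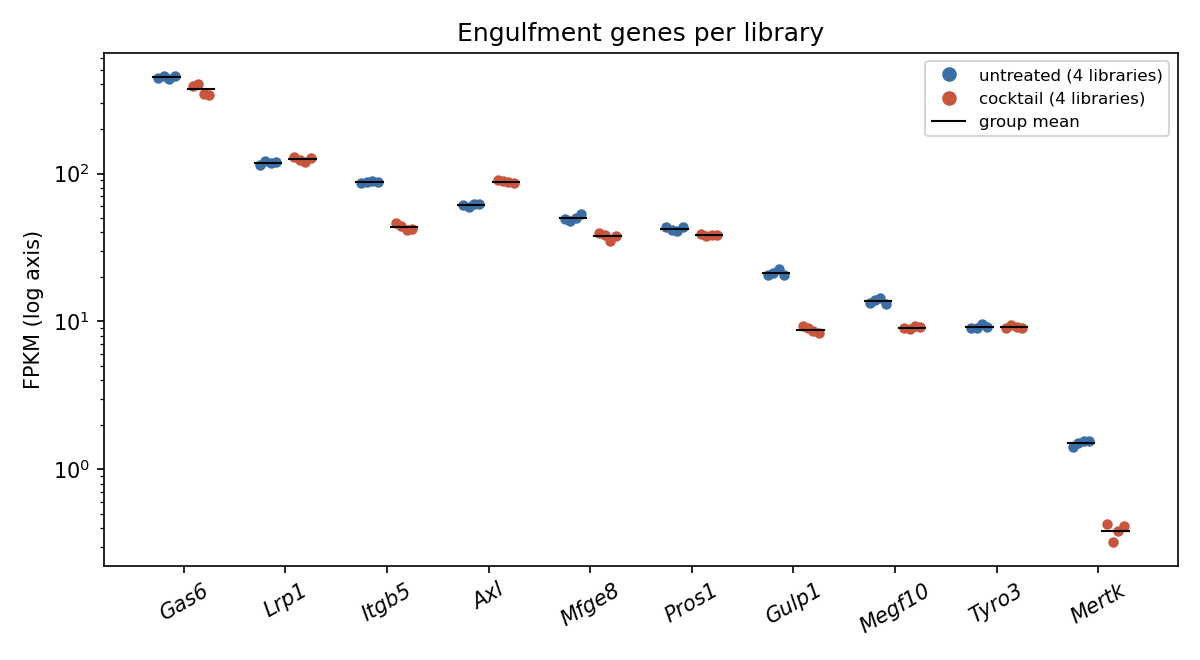
FPKM (log axis) of the 10 engulfment genes in each library, untreated in blue and cocktail in red, with a black line at each group mean and genes in order of their untreated mean. Gas6 stands highest in both groups, the Axl libraries lie higher after the cocktail, and the Itgb5, Gulp1, Megf10 and Mertk libraries lie lower.

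The RefSeq sequences just before the start sites of 4 of these genes are shown because they are the main rise (Axl), 2 of the largest falls (Mertk and Itgb5) and the most abundant member (Gas6). A promoter window was found for 9 of the 10 genes by NCBI gene number. Each sequence reads 5′ to 3′ on the strand of its gene, from GRCm38.p6. The windows are chr2:128698665-128698914 on the plus strand for Mertk, chr16:33829415-33829664 on the plus strand for Itgb5, and chr8:13494536-13494785 on the minus strand for Gas6. Each of these holds the 250 bases before the start. For Axl the stretch of 59 bases at chr7:25788925-25788983 on the minus strand is the part of its window that lies outside the annotated span of the gene, and the GC box of its window lies within that span and is not shown. Capitals mark matches to 2 of the motifs searched, the SP1 GC box GGGCGG and the TEAD motif GGAATG, on either strand.
Axl: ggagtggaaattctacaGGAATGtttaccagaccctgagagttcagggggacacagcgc
Mertk: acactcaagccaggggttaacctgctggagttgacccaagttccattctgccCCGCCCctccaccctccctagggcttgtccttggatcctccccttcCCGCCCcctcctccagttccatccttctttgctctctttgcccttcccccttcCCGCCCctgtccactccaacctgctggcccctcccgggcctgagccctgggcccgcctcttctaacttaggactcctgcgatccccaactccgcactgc
Itgb5: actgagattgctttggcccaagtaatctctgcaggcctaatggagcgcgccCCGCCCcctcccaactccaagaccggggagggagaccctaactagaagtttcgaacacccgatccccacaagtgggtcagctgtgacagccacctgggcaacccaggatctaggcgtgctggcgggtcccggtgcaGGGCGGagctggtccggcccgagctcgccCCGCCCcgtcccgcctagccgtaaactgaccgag
Gas6: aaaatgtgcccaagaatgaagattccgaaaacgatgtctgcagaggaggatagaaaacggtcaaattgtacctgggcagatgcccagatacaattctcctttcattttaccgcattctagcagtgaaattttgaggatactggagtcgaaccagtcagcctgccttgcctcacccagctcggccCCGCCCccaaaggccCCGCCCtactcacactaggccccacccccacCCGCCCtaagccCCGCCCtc

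The GC box was found in all 9 windows, in those of genes that rose, fell or did not pass the test, and in 58.6% of the 12230 windows of tested genes. The windows of Tyro3 and Gulp1 lie within the annotated span of the gene. Of their 250 bases, 128 (Tyro3) and 160 (Gulp1) are annotated as exon of the same gene. The GC boxes of Mertk begin 198, 152 and 99 bases before the start, and those of Gas6 begin 66, 51, 20 and 8 bases before it. Bases just after the start were found in GENCODE transcripts of the gene for Itgb5, but not for Axl, Mertk or Gas6. Distances therefore hold for the RefSeq starts only. In Pros1, a pair of GC boxes overlap each other. The TEAD motif was found in the window of Axl only, 233 to 228 bases before the start, and in 10.7% of the windows of tested genes. A further 4 motifs were searched on both strands, NF-kB (GGG, any 2 bases, TTTCC), AP-1 (TGANTCA), the interferon-stimulated element (GAAA, any 2 bases, GAAA) and the E-box (CACGTG). These letters occur in none of the 9 windows, and in 1.41%, 4.31%, 2.55% and 8.27% of the windows of tested genes. No overlap between different motifs was removed, and a match is a description of the letters only.

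Among the TAM receptor kinases, Axl was by far the most abundant in both groups. Axl stood at 61.0, 59.4, 61.9 and 62.0 FPKM in untreated libraries 1 to 4 and at 90.4, 88.6, 87.8 and 86.0 FPKM in cocktail libraries 1 to 4. Every cocktail library lay above every untreated library. The log2 change of Axl was 0.52 (standard error 0.027, limma adjusted p = 5.6e-09) on the log2(FPKM + 1) scale, on which all changes are given unless voom is named. Only 8.27% of all tested genes had a log2 change as high or higher. Axl lies on chromosome 7 from 25756500 to 25788924.

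Mertk, the TAM receptor best known from phagocytic cells, was the lowest of the 10 genes. It stood at 1.42, 1.502, 1.54 and 1.55 FPKM in untreated libraries 1 to 4 and at 0.428, 0.321, 0.381 and 0.414 FPKM in cocktail libraries 1 to 4. These values rest on 138, 144, 155 and 160 fragments in the untreated and on 43, 31, 39 and 42 fragments in the cocktail libraries, recovered from the steps of the FPKM values. The groups lay far apart, with no cocktail library near the untreated ones. Mertk entered the test only through its untreated libraries, since all cocktail libraries were under the minimum of 1 FPKM, so that a difference was built into its entry. Its log2 change was -0.85 (standard error 0.056, limma adjusted p = 5.8e-08), and without any filter on low values the call held (limma, adjusted p = 1.0e-07). The pseudocount of 1 FPKM compresses a gene at this level. In voom, which fits log2 fragments scaled to depth, the change was -1.96 (standard error 0.14, limma voom adjusted p = 1.3e-09), and 1.40% of the tested genes fell as far or farther. Mertk lies on chromosome 2 from 128698915 to 128803162.

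Tyro3, the TAM receptor most typical of the nervous system, stood at 8.98, 9.002, 9.60 and 9.22 FPKM in untreated and at 9.01, 9.52, 9.13 and 8.99 FPKM in cocktail libraries 1 to 4. The groups overlapped throughout. Its log2 change was -0.005, with a 95% interval from -0.087 to 0.077 (limma, adjusted p = 0.91). After median-ratio rescaling it was 0.06 (limma, adjusted p = 0.15), so that no direction can be given for Tyro3.

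Opposite changes of its members altered the make-up of the TAM set. Of the summed FPKM of Axl, Tyro3 and Mertk, the share of Axl was 85.1% ± 0.30 (SD, n = 4) without and 90.2% ± 0.23 (SD, n = 4) with the cocktail. The share of Mertk was 2.10% ± 0.070 and 0.395% ± 0.050, and that of Tyro3 was 12.8% ± 0.25 and 9.37% ± 0.27 (SD, n = 4 in each group). Summed over the TAM genes, untreated libraries held 71.8 ± 1.45 FPKM and cocktail libraries 97.8 ± 1.90 FPKM (SD, n = 4). These shares and sums were calculated from the values above and describe the same changes.

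**Figure D2:**
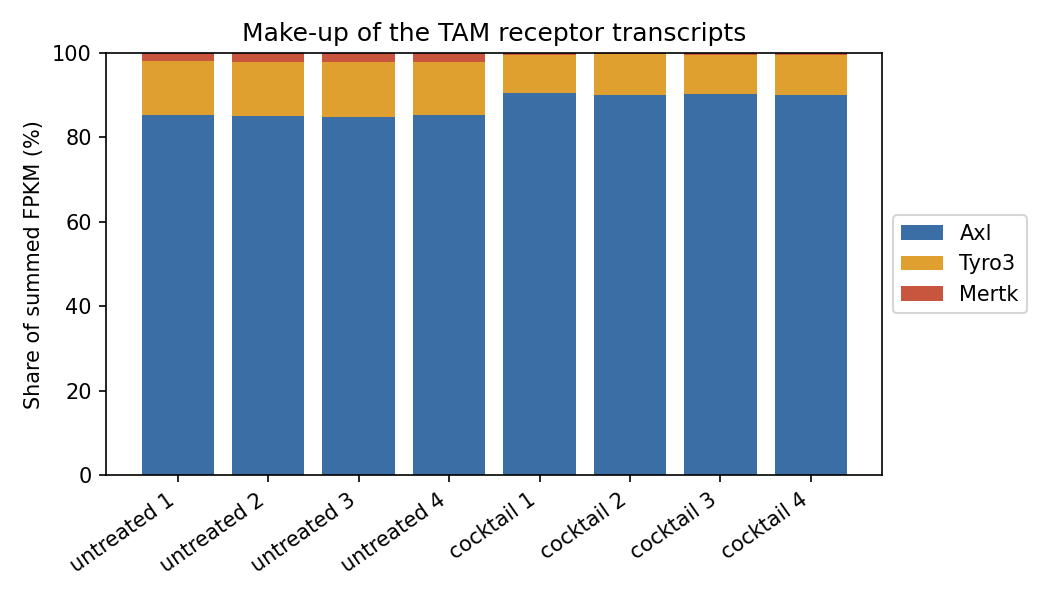
Share of Axl, Tyro3 and Mertk in their summed FPKM, in percent, for each library. Axl makes up 84.7% to 85.4% in the untreated and 90.0% to 90.5% in the cocktail libraries, and the Mertk band at the top shrinks from about 2.10% to 0.395% on average.

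Gas6, which encodes the vitamin K-dependent ligand that binds all TAM receptors, was the most abundant of the 10 genes and ranked 51 among all genes of the table in untreated cells. It stood at 445, 454, 436 and 454 FPKM in untreated libraries 1 to 4 and at 393, 404, 344 and 339 FPKM in cocktail libraries 1 to 4. All cocktail libraries lay below all untreated ones, and cocktail libraries 1 and 2 lay above 3 and 4. The log2 change was -0.28 (standard error 0.053, limma adjusted p = 0.00061). It was -0.17 without cocktail libraries 3 and 4 (limma, adjusted p = 0.00072) and -0.39 without cocktail libraries 1 and 2 (limma, adjusted p = 9.4e-07). Gas6 lies on chromosome 8 from 13465374 to 13494535, and its exons share 34 bases with those of Tmem255b on the other strand, a gene with a mean of 0.0137 FPKM here.

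Pros1 encodes protein S, the other vitamin K-dependent TAM ligand, which binds Tyro3 and Mertk but is not a main ligand of Axl. Its FPKM was 43.5, 41.2, 40.7 and 43.2 in untreated and 38.9, 38.0, 38.3 and 38.7 in cocktail libraries 1 to 4. The groups did not overlap, and the untreated libraries spread more. Its log2 change was -0.13 (standard error 0.029, limma adjusted p = 0.0021). After median-ratio rescaling it was -0.05 and no longer called (limma, adjusted p = 0.13).

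Ligand transcripts outnumbered receptor transcripts in both groups. The ratio of Gas6 FPKM to Axl FPKM was 7.33 ± 0.25 (SD, n = 4) before and 4.19 ± 0.31 (SD, n = 4) after the cocktail, as Gas6 was lower and Axl higher. Gas6 made up 91.4% ± 0.24 (SD, n = 4) of the summed Gas6 and Pros1 FPKM without and 90.5% ± 0.80 (SD, n = 4) with the cocktail, and the libraries of both groups overlapped in this share.

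Mfge8, which encodes a secreted glycoprotein with an integrin-binding and a lipid-binding part, stood at 49.3, 48.0, 49.8 and 53.1 FPKM in untreated and at 39.5, 38.7, 34.9 and 37.6 FPKM in cocktail libraries 1 to 4. No libraries of the groups overlapped. On the log2 scale the change was -0.40 (standard error 0.042, limma adjusted p = 4.1e-06). Mfge8 lies on chromosome 7 from 79133768 to 79149060.

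Itgb5, the integrin β5 chain, stood at 86.2, 87.8, 89.5 and 87.5 FPKM in untreated and at 46.4, 43.9, 41.7 and 42.4 FPKM in cocktail libraries 1 to 4. The groups were well separated and each was tight. The log2 change was -0.99 (standard error 0.034, limma adjusted p = 1.6e-10), and 4.71% of all tested genes fell as far or farther. Itgb5 lies on chromosome 16 from 33829665 to 33949338. Its partner chain gene Itgav went from 33.4 ± 2.31 to 37.4 ± 1.22 FPKM (SD, n = 4; log2 change 0.16, limma, adjusted p = 0.0081) with overlapping libraries. The αv partner Itgb8, which binds latent TGF-β, rose from 29.5 ± 2.23 to 64.6 ± 2.90 FPKM (SD, n = 4; by limma, adjusted p = 2.4e-09). Itgb1, the β1 chain, fell from 319 ± 21.0 to 229 ± 6.31 FPKM (SD, n = 4; by limma, adjusted p = 1.2e-06). Itgav and Itgb1 were chosen for their role after their values were seen.

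Megf10, the receptor that can bind C1q, stood at 13.3, 13.9, 14.3 and 13.2 FPKM in untreated and at 8.995, 8.83, 9.33 and 9.12 FPKM in cocktail libraries 1 to 4. The groups did not overlap. Megf10 had a log2 change of -0.54 (standard error 0.038, limma adjusted p = 1.0e-07). Its values rest on 1932 to 2164 fragments in untreated and on 1282 to 1437 fragments in cocktail libraries. The related gene Megf11 was under the minimum for the test, at a mean of 0.752 FPKM in untreated and 0.179 FPKM in cocktail libraries, and was chosen after its values were seen.

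Gulp1, the adaptor that links Megf10 and Lrp1 to the engulfment machinery, stood at 20.5, 21.2, 22.5 and 20.7 FPKM in untreated and at 9.26, 9.03, 8.64 and 8.29 FPKM in cocktail libraries 1 to 4. Every cocktail library lay below 10 FPKM and every untreated one above 20. Its log2 change was -1.18 (standard error 0.043, limma adjusted p = 2.6e-10), and 2.91% of all tested genes fell as far or farther. Gulp1 lies on chromosome 1 from 44551380 to 44796838.

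Lrp1, a large endocytic receptor, held the 2nd place among the 10 genes in both groups. It stood at 114, 121, 118 and 119 FPKM in untreated and at 130, 124, 119 and 127 FPKM in cocktail libraries 1 to 4, and the groups overlapped. The log2 change was 0.08 (standard error 0.032, limma adjusted p = 0.0492), just inside the threshold. The call was lost without untreated library 1 (limma, adjusted p = 0.14), 3 (0.085) or 4 (0.070) and without cocktail library 1 (0.14), 2 (0.067) or 4 (0.10). It was also lost with the replicate number as a block (limma, adjusted p = 0.074), without a mean-variance trend (0.091), without the filter on low values (0.065) and without cocktail libraries 1 and 2 together (0.21). Its direction was upward in all 17 alternatives. After median-ratio rescaling the change was 0.15 (limma, adjusted p = 0.0015).

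**Figure D3:**
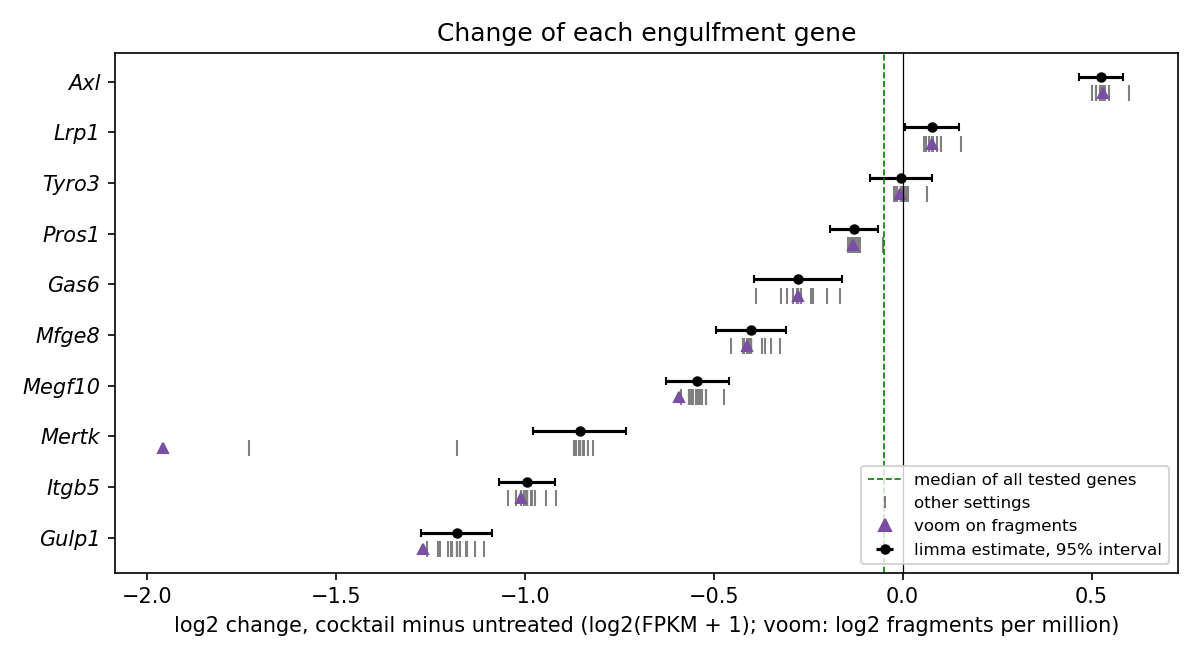
Log2 change of each gene, cocktail minus untreated, as the limma estimate with its 95% interval (black) and under the other settings (grey ticks, purple triangle for voom), with the median of all tested genes as a dashed line. Gulp1, Itgb5 and Mertk lie farthest to the left, Axl lies farthest to the right, Lrp1 lies just right of 0, and the interval of Tyro3 spans 0. The low-level gene Mertk moves with the pseudocount and the scale, from -0.82 to -1.96.

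The order of levels changed in the middle of the set. In untreated cells it was Gas6, Lrp1, Itgb5, Axl, Mfge8, Pros1, Gulp1, Megf10, Tyro3 and Mertk, and no neighbours in this order had overlapping libraries. In cocktail-treated cells Axl stood above Itgb5. Pros1 (38.0 to 38.9 FPKM) then overlapped Mfge8 (34.9 to 39.5 FPKM). Tyro3 (8.99 to 9.52 FPKM), Megf10 (8.83 to 9.33 FPKM) and Gulp1 (8.29 to 9.26 FPKM) also overlapped each other, so that their order cannot be told. In rank among all genes of the table, Gulp1 went from 3258 to 6406 and Axl from 1011 to 623.

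Cocktail libraries 1 and 2 differed from 3 and 4 in several of these genes. Axl, Gas6, Mfge8, Gulp1 and Itgb5 were higher in both of libraries 1 and 2 than in 3 and 4, and Megf10 was lower. Of all tested genes 21.1% were higher and 24.6% lower in this way. The summed FPKM of 17 microglial markers stood at 44.1 and 43.6 in cocktail libraries 1 and 2 and at 70.1 and 90.0 in 3 and 4, against 48.9 to 50.4 in untreated libraries. Of the 17 markers 9 were tested, 5 were called higher, 1 lower and 3 were not called. Over all tested genes 26.6% were called higher and 41.1% lower. Cd68, a lysosomal protein of phagocytes, stood at 3.35 to 4.20 FPKM in untreated libraries and at 5.95, 5.56, 9.35 and 11.3 FPKM in cocktail libraries 1 to 4 (limma, adjusted p = 0.00079). Fcer1g, an adaptor of Fc receptors, stood at 1.91 to 2.42 FPKM and at 3.25, 3.46, 10.005 and 12.4 FPKM (limma, adjusted p = 0.0053). Both stayed called higher without cocktail libraries 3 and 4 (limma, adjusted p = 0.00031 and 0.00042).

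The other markers called higher were Tyrobp, described with the recognition receptors, and Itgam and Csf1r. Itgam went from 0.910 ± 0.244 to 2.62 ± 1.81 FPKM (SD, n = 4; by limma, adjusted p = 0.022) and Csf1r from 0.903 ± 0.237 to 2.47 ± 1.74 FPKM (SD, n = 4; by limma, adjusted p = 0.037). Without cocktail libraries 3 and 4 neither was called (limma, adjusted p = 0.12 for Itgam and 0.42 for Csf1r). Itgam reached the minimum of 1 FPKM in all cocktail libraries but not in all untreated ones. Csf1r reached it only in untreated library 1 and in cocktail libraries 2, 3 and 4, so that its entry depended on the cocktail group. The call of Itgam was also lost without untreated library 4 (0.055) or cocktail library 3 (0.064) and without the filter (0.055). That of Csf1r was lost without untreated library 2 (0.065), 3 (0.064) or 4 (0.089), without cocktail library 3 (0.11) or 4 (0.088), without the filter (0.083) and without the trend (0.053). Siglech was at 0 in every library, and P2ry12 and Cx3cr1 had means of 0.0925 and 0.412 FPKM in untreated and of 0.120 and 0.667 FPKM in cocktail libraries. Microglia can express Mertk, Axl, Gas6 and Pros1, and the part of these cells in the changes of the 10 genes was not tested. The microglial, astrocyte and other marker genes given with a test here were chosen after their values were seen.

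Markers of astrocytes were present in every library, with summed FPKM of 9 markers from 1052 to 1188 in untreated and from 845 to 872 in cocktail libraries. Of these, 7 were called lower and 2 higher, Aqp4 (165 ± 4.43 to 253 ± 5.12 FPKM, SD, n = 4; by limma, adjusted p = 2.0e-09) and Slc1a2 (9.73 ± 0.579 to 52.3 ± 1.17 FPKM, SD, n = 4; by limma, adjusted p = 7.5e-13). Over all tested genes 41.1% were called lower and 26.6% higher. S100b, also called lower, was low, at 1.18 and 0.291 FPKM on average. It entered the test only through its untreated libraries, so that a difference was built into its entry. Summed markers of neurons, mural cells, the oligodendrocyte lineage, ependyma and endothelium were lower in every cocktail library than in any untreated one, each sum being carried mostly by 1 or 2 genes. Ranges went from 128 to 146 and 46.0 to 52.5 FPKM for 5 neuronal genes, mostly Stmn2, and from 557 to 627 and 122 to 137 FPKM for 5 mural genes, mostly Acta2. For 8 oligodendrocyte lineage genes they were 166 to 176 and 97.1 to 102 FPKM (mostly Olig1 and Olig2), for 4 ependymal genes 145 to 160 and 78.3 to 90.8 FPKM (mostly Foxj1), and for 6 endothelial genes 4.81 to 5.34 and 1.38 to 1.80 FPKM, where Kdr and Cdh5 gave most. For 5 fibroblast genes the ranges overlapped, at 102 to 126 and 80.3 to 111 FPKM. Single markers went the other way. Pdgfra, a marker of oligodendrocyte precursors, rose from 0.934 ± 0.111 to 3.07 ± 0.155 FPKM (SD, n = 4; by limma, adjusted p = 1.1e-08). The fibroblast markers Lum and Dcn rose from 0.237 ± 0.063 to 7.69 ± 1.03 FPKM (Lum) and from 1.45 ± 0.146 to 8.31 ± 2.58 FPKM (Dcn; SD, n = 4; by limma, adjusted p = 4.3e-11 and 2.9e-07). Col1a1, of the same list, fell from 48.8 ± 6.14 to 34.4 ± 2.56 FPKM (SD, n = 4, limma adjusted p = 0.00014). Col1a2 fell from 53.7 ± 3.37 to 32.1 ± 5.71 FPKM (SD, n = 4, limma adjusted p = 2.4e-05), and Col3a1 was not called (limma, adjusted p = 0.68). These collagen genes are not among the 64 genes checked in the closing sections. Lum entered the test through its cocktail libraries, and so did Pdgfra, whose untreated libraries stood at 0.809 to 1.06 FPKM. A difference was thus built into their entry. Without the filter on low values both calls held (limma, adjusted p = 1.2e-08 for Lum and 2.9e-07 for Pdgfra). Markers at or near 0 included Cldn5 and Mog at 0 in every library and Rbfox3 at 0.0355 and 0.00541 FPKM on average. The part of these cells, too, was not tested. In bulk samples, fewer cells of a type and less RNA per cell cannot be told apart.

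Other recognition receptors and bridging molecules moved in both directions. Among 34 such genes, 18 could be tested, 5 were called higher and 5 lower, with a median log2 change of 0.14. Over all tested genes 26.6% were called higher and 41.1% lower, with a median of -0.05. Adgrb1, a phosphatidylserine receptor also called BAI1, fell from 10.005 ± 0.529 to 2.75 ± 0.325 FPKM (SD, n = 4; by limma, adjusted p = 8.4e-10), while its relative Adgrb3 rose from 4.71 ± 0.163 to 8.55 ± 0.266 FPKM (SD, n = 4; by limma, adjusted p = 1.2e-08). Thbs1, a matrix protein that can bridge dying cells to integrins, fell from 487 ± 33.3 to 227 ± 19.5 FPKM (SD, n = 4; by limma, adjusted p = 1.4e-08). Lgals3, a galectin, fell from 18.9 ± 1.30 to 9.04 ± 2.63 FPKM (SD, n = 4; by limma, adjusted p = 5.8e-05). Tyrobp, a signalling adaptor of microglia, stood at 2.45 to 3.33 FPKM in untreated libraries and at 3.15, 3.18, 5.91 and 8.66 FPKM in cocktail libraries 1 to 4 (log2 change 0.62, limma, adjusted p = 0.030). Without cocktail libraries 3 and 4 its change was 0.13 (limma, adjusted p = 0.22), and the call was also lost without untreated library 1 (0.071), 2 (0.0501) or 4 (0.064), without cocktail library 3 (0.082) or 4 (0.055), and without the filter (0.071). Without cocktail library 1 the list had 8 genes called higher.

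Genes that display or hide a cell as a meal were called higher in 8 and lower in 3 of 14 tested. The shares over all tested genes were 26.6% higher and 41.1% lower. The median log2 change of the list was 0.12. Cx3cl1, a chemokine by which cells address microglia, rose from 55.8 ± 0.695 to 183 ± 17.5 FPKM (SD, n = 4; by limma, adjusted p = 1.1e-10). Cd47, the signal that holds phagocytes off, rose from 17.7 ± 0.561 to 36.4 ± 2.16 FPKM (SD, n = 4; by limma, adjusted p = 1.1e-09), and Cd24a rose from 140 ± 4.09 to 237 ± 13.2 FPKM (SD, n = 4; by limma, adjusted p = 6.5e-09). Calr, the chaperone calreticulin that can act as a surface signal for uptake through Lrp1, rose from 297 ± 5.37 to 457 ± 9.15 FPKM (SD, n = 4; by limma, adjusted p = 1.1e-09), and was chosen for this role after its values were seen. Flippases, which return phosphatidylserine to the inner leaflet, moved in both directions. The flippase gene Atp11a rose from 25.5 ± 0.353 to 40.4 ± 1.20 FPKM (SD, n = 4; by limma, adjusted p = 2.0e-09). Atp8a1, of the same family, went from 5.95 ± 0.111 to 6.51 ± 0.226 FPKM (SD, n = 4; by limma, adjusted p = 0.026). Its call was lost without untreated library 3 (0.062) or 4 (0.057), without cocktail library 2 (0.072) or 3 (0.054) and without cocktail libraries 1 and 2 together (0.13). Both were chosen after their values were seen. Falls included Atp11b, another flippase subunit, from 14.1 ± 0.205 to 11.9 ± 0.529 FPKM (SD, n = 4; by limma, adjusted p = 0.00016), and its partner subunit gene Tmem30a. Tmem30a went from 59.9 ± 2.52 to 54.0 ± 1.24 FPKM (SD, n = 4; by limma, adjusted p = 0.0021), and median-ratio rescaling ended this call (limma, adjusted p = 0.091).

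Genes of ligand maturation and receptor shedding, not all of them enzymes, were called higher in 4 and lower in 9 of 16 tested. Timp3, an inhibitor, is counted among the falls. Calls covered 26.6% (higher) and 41.1% (lower) of all tested genes. The median log2 change of the list was -0.15. TAM ligands need carboxylation by Ggcx, with vitamin K recycled by Vkorc1 and Vkorc1l1, genes chosen for this role after their values were seen. Ggcx stood at 8.45 ± 0.399 and 8.14 ± 0.498 FPKM (SD, n = 4; by limma, adjusted p = 0.40) and Vkorc1 at 39.6 ± 3.62 and 37.5 ± 1.64 FPKM (SD, n = 4; by limma, adjusted p = 0.29). Without untreated library 2 the change of Vkorc1 was -0.14 and called (limma, adjusted p = 0.0087). Vkorc1l1 fell from 11.97 ± 0.261 to 10.7 ± 0.251 FPKM (SD, n = 4; by limma, adjusted p = 0.0019), and median-ratio rescaling ended the call (limma, adjusted p = 0.056).

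Adam17, a protease that sheds Mertk and Axl, rose from 23.0 ± 0.684 to 31.8 ± 1.40 FPKM (SD, n = 4; by limma, adjusted p = 3.9e-07). Rhbdf2, which carries Adam17 to the surface, rose from 15.05 ± 0.921 to 29.9 ± 2.44 FPKM (SD, n = 4; by limma, adjusted p = 3.3e-08). Timp3, the protein inhibitor of Adam17, fell from 433 ± 8.53 to 148 ± 10.6 FPKM (SD, n = 4; by limma, adjusted p = 4.0e-11). Adam10, another protease of this list, fell from 43.7 ± 0.889 to 33.6 ± 0.692 FPKM (SD, n = 4; by limma, adjusted p = 2.0e-07). Adam10 was chosen after its values were seen and is not among the 64 genes checked in the closing sections. Adam9 fell from 88.6 ± 3.20 to 52.2 ± 1.77 FPKM, and the proprotein convertase gene Pcsk6 fell from 51.6 ± 3.94 to 8.65 ± 1.38 FPKM (SD, n = 4; by limma, adjusted p = 2.0e-09 and 3.1e-10). Its relative Pcsk5 rose from 1.48 ± 0.161 to 3.03 ± 0.167 FPKM (SD, n = 4; by limma, adjusted p = 7.4e-07).

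Of 37 tested genes of engulfment signalling, the phagosome and lipid export, 9 were called higher, 12 lower and 16 not called, with a median log2 change of -0.004. Over all tested genes 26.6% were called higher and 41.1% lower. After median-ratio rescaling 18 of the 37 genes were called higher. Elmo1 and Elmo2, which with Dock1 activate the small GTPase Rac1 downstream of engulfment receptors, went down from 1.73 ± 0.140 to 0.583 ± 0.090 FPKM (Elmo1) and from 35.4 ± 0.469 to 24.5 ± 1.08 FPKM (Elmo2; SD, n = 4; by limma, adjusted p = 4.3e-07 and 6.1e-08). Elmo3 rose from 2.81 ± 0.172 to 4.53 ± 0.526 FPKM (SD, n = 4; by limma, adjusted p = 2.2e-05). Elmo1 entered the test through its untreated libraries. Rac1 fell from 168 ± 2.75 to 151 ± 1.67 FPKM (SD, n = 4; by limma, adjusted p = 9.3e-05). Dock1 stood at 17.4 ± 0.211 and 17.9 ± 0.585 FPKM (SD, n = 4; by limma, adjusted p = 0.33), with a change of 0.11 that was called after median-ratio rescaling (limma, adjusted p = 0.0088). Rac1 and Dock1 were chosen for their role after their values were seen. Bcar1, a docking protein of integrin signalling, fell from 33.0 ± 0.842 to 21.9 ± 2.51 FPKM (SD, n = 4; by limma, adjusted p = 7.5e-06). The lipid transporter genes Abca1 and Abca7 rose from 102 ± 2.18 to 145 ± 4.28 FPKM (Abca1) and from 3.56 ± 0.281 to 6.05 ± 0.456 FPKM (Abca7; SD, n = 4; by limma, adjusted p = 1.6e-08 and 1.8e-06).

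Relatives and ligands of Lrp1 were called lower in 11 and higher in 5 of 21 tested, with a median log2 change of -0.22. The shares over all tested genes were 41.1% lower and 26.6% higher. Among the receptors, Sorl1 fell from 77.6 ± 2.47 to 20.2 ± 0.816 FPKM and Lrp2 from 23.3 ± 0.461 to 6.71 ± 1.21 FPKM (SD, n = 4; by limma, adjusted p = 1.2e-12 and 7.6e-09), while Vldlr rose from 1.80 ± 0.155 to 3.21 ± 0.302 FPKM (SD, n = 4; by limma, adjusted p = 6.2e-06). Among the ligands, Ctgf fell from 397 ± 8.36 to 64.1 ± 6.39 FPKM (SD, n = 4; by limma, adjusted p = 4.5e-12). The protease gene Mmp9 rose from 0.183 ± 0.061 to 5.20 ± 0.412 FPKM (SD, n = 4; by limma, adjusted p = 2.3e-11). Mmp9 entered the test through its cocktail libraries.

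TAM receptors signal together with the type I interferon receptor and induce Socs proteins, which damp cytokine signalling. Of 12 tested genes of this feedback 8 were called higher and 2 lower, with a median log2 change of 0.35. Over all tested genes 26.6% were called higher and 41.1% lower, with a median of -0.05. Socs1 rose from 2.45 ± 0.342 to 5.11 ± 0.438 FPKM and Socs3 from 21.3 ± 0.552 to 35.2 ± 1.86 FPKM (SD, n = 4; by limma, adjusted p = 1.3e-06 and 1.4e-08). Ifnar2, a chain of the interferon receptor, rose from 10.4 ± 0.552 to 24.6 ± 0.678 FPKM (SD, n = 4; by limma, adjusted p = 1.8e-10). Twist1, a transcription factor described downstream of Axl, fell from 8.95 ± 0.539 to 3.06 ± 0.336 FPKM (SD, n = 4; by limma, adjusted p = 5.0e-09). Cblb, a ubiquitin ligase, fell from 2.87 ± 0.068 to 2.13 ± 0.098 FPKM (SD, n = 4; by limma, adjusted p = 0.00011). Cytokines other than TAM ligands also induce the Socs genes.

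**Figure D4:**
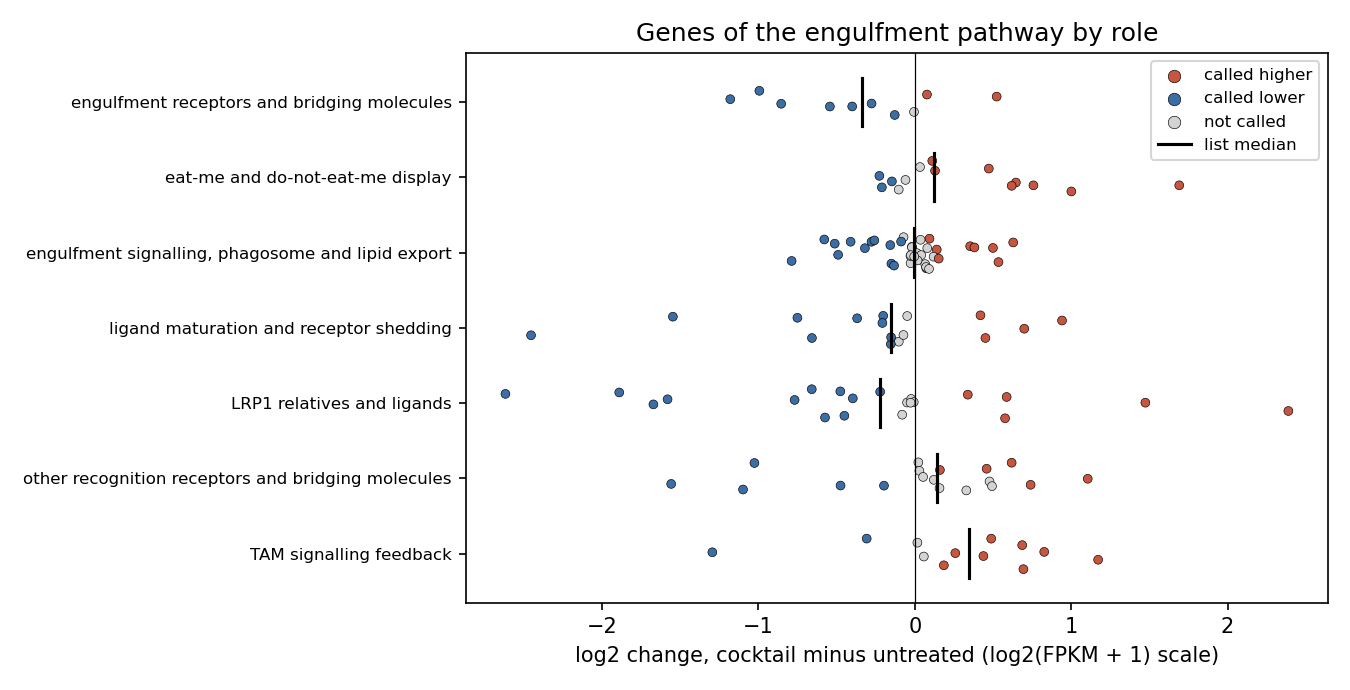
Log2 change, cocktail minus untreated, of each tested gene of the 10 engulfment genes (top) and of the lists of related genes, coloured by call, with a black line at each list's median. Medians run from -0.34 for the 10 genes to 0.35 for the TAM feedback genes, and calls in both directions occur in every list.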

How the data were processed

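Polyadenylated RNA was measured in 4 untreated and 4 cocktail libraries, grouped by sample titles, since 3 cocktail libraries carry other digits in the C1q of their treatment label. TRIzol RNA and a strand-specific mRNA kit were used, per the labels' protocols. The authors deposited FPKM values, 1 column for each sample. DESeq and mm10 are named in the submitters' processing notes. The aligner and the counter are each not given in the sources used here. Whether counting used strand is therefore unknown.

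FPKM values of a gene stood in whole-number ratios (relative tolerance 1e-11), which gave whole fragments for each of the 16557 genes detected in 2 or more libraries, and totals of 19195898 to 20640490 fragments per library. Where a gene of 2 kb has no fragment, up to 3 fragments (0.0727 to 0.0781 FPKM) are allowed by counting error alone. The chi-square per gene between libraries of a group (20 or more fragments in the pair) was 2.11 to 6.79, above sampling noise, so each library counted as 1 sample.

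The test was two-sided, in limma 3.58.1 under R 4.3.3, with the mean-variance trend, on log2(FPKM + 1) values, with Benjamini-Hochberg adjustment over the 11845 genes that reached 1 FPKM in 4 or more of 8 libraries. Scripts were tested on simulated data. Alternatives were other pseudocounts, no filter, median-ratio rescaling, voom on recovered fragments, a replicate block, no trend, and left-out libraries. Members and lists were chosen with earlier results of these data known. Of each list, up to 3 called rises and 3 called falls with the largest log2 change and a higher mean of at least 1 FPKM could be named. Some genes of the lists are not reported here. Positions and promoters came from RefSeq GRCm38.p6, the assembly that mm10 names, and exon overlaps from GENCODE. Protein sequences were not used here.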

Additional observations from a re-analysis of the deposited data

Results flagged for a closer look

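Of 128 groups of 4 libraries (64 named genes in each of 2 groups), 3 held a library far from the other 3, where chance flags about 1 in 20. Adgrb1 was at 9.22 FPKM in untreated library 4 and at 10.2 to 10.3 FPKM in the others. Pcsk5 was at 1.24 FPKM in untreated library 2 and at 1.55 to 1.58 FPKM in the others. Abca1 was at 151 FPKM in cocktail library 1 and at 142 to 143 FPKM in the others. None of these is among the 10 engulfment genes.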

How the results depend on the processing

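Over 17 alternatives, the 10 engulfment genes kept their call, or stayed uncalled, in 159 of 170 checks. The other 11 were lost calls, 10 of Lrp1 and 1 of Pros1 (median-ratio rescaling), and no call reversed. All of the genes kept their direction except Tyro3, which was never called and whose change ran from -0.022 to 0.064. The number of these genes called higher was 1 without the filter, with the replicate block, without the trend and without cocktail libraries 1 and 2, and 1 to 2 when single libraries were left out, because of Lrp1. The number called lower was 6 to 7 throughout. For other recognition receptors, the number called lower was 9 without the filter, where more genes are tested, and the number called higher was 10 without cocktail libraries 1 and 2 and 4 to 8 without single libraries. The number of signalling, phagosome and lipid export genes called higher was 18 after median-ratio rescaling, which raises cocktail values against untreated ones. Named list genes and those named as markers or for their role kept their call in 890 of 918 checks, with 26 lost and 2 gained. No clear pairing of the libraries by replicate number was seen, but so few libraries cannot exclude one. Deviations of same-numbered libraries from their group means correlated at -0.04, 0.08, 0.09 and -0.007, and not every library correlated best with its own number. The replicate block gave 3121 genes called higher and 4829 lower, against 3151 and 4872 without it. Depth limits Mertk most, with 31 to 43 fragments in cocktail libraries.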
